A study of Bos taurus with 40 samples.

Results

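The heat shock and unfolded protein response genes are the chaperones and stress regulators that fold proteins in the cytosol, the mitochondria and the endoplasmic reticulum (ER). A list of 36 genes was followed in bovine endometrium, the mucosa that lines the uterus, and 35 of them were matched by symbol to a row among the 32671 genes of the count table. The list holds 15 chaperones and folding enzymes of the ER lumen and membrane, 5 sensors and transcription factors of the unfolded protein response, 3 genes of ER-associated degradation, 11 cytosolic chaperones and cochaperones, and 2 mitochondrial chaperones. The gene without a matched row was ERN1, which encodes the ER stress sensor IRE1, and it was not analysed here. All 35 matched genes passed the filter on low counts in every fit, and the lowest count of any of them in any library was 17 reads, for HSPA6.

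The endometrium came from synchronized heifers slaughtered on days 5, 7, 13 and 16, with 5 heifers on each day and both uterine horns taken from each. The horn next to the ovary that carries the corpus luteum, the source of progesterone, is called ipsilateral and the opposite one contralateral, which gives 8 groups of 5 RNA-seq libraries. The labels name the times by day of pregnancy, whereas the design text dates them from estrus, and insemination of the heifers is not described in the sources used here. The series asked whether differences between the horns could influence the growth of the conceptus. No group carried a treatment or a genotype label of its own, the age of the heifers was not stated, and each library came from homogenised tissue of 1 horn of 1 heifer.

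Proteins that enter the secretory pathway fold in the ER with the help of HSPA5 (BiP), its J-domain partners, disulfide isomerases and the lectin chaperones calnexin and calreticulin. When unfolded proteins accumulate there, the sensors ATF6, IRE1 and PERK switch on the transcription factors ATF6, XBP1 and ATF4, which raise folding capacity, degradation and, through DDIT3 (CHOP), programmes linked to cell death. In the cytosol, heat shock factors drive the HSP70, HSP90 and small heat shock protein genes, some of which are made at all times and some mainly under stress. The endometrium is a secretory tissue whose glands release proteins that nourish the early embryo, and progesterone and estrogen act on it through receptors that need cytosolic chaperones to fold.

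Library depth in the gene counts was 27 to 64.4 M reads, with a median of 33.2 M. The deepest was an ipsilateral library of day 5, and no library of another group exceeded 38.6 M. Marker genes of epithelium, stroma, endothelium and leukocytes were found in every library, summed stromal markers ranged from 12268 to 51753 CPM (reads of a gene scaled to a common library size), and the smooth muscle marker HSPB3 was at 0 in all libraries. A pair of libraries stood apart in the genes described here. Ipsilateral library 8-1350 of day 5 held the highest value of its group in 9 of 11 cytosolic chaperone genes and summed smooth muscle markers of 6890 CPM, against 991 to 1201 CPM in the other 4. Ipsilateral library 5-137 of day 16 lay above the other 4 of its group in 19 of the 35 genes and below them in 2. The number in each title is shared by 1 library of each horn, but the paired libraries correlated in only 5 of 20 cases, so the horns were compared as separate groups. Levels below are CPM after TMM scaling over all 40 libraries. A change or difference is a log2 fold change with its standard error (SE), and it is called when the adjusted p of edgeR's quasi-likelihood test, corrected by Benjamini-Hochberg over all genes tested, is below 0.05. In homogenised tissue, fewer cells of a type and less RNA per cell cannot be told apart.

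Both the ER folding genes and the cytosolic chaperones had their lowest group medians on day 13 in each horn. To describe each class per library, each gene's log2 CPM was centred on its mean over the 40 libraries and the median was taken over the 15 ER folding genes and over the 11 cytosolic genes. In the ipsilateral horn the ER median ran from 0.06 to 0.51 on day 5 and from 0.04 to 0.24 on day 7, and then from -0.60 to -0.42 on day 13 and from -0.47 to -0.03 on day 16. In the contralateral horn it ran from 0.49 to 0.71, from 0.34 to 0.59, from -0.37 to -0.25 and from -0.38 to -0.12. Every library of days 5 and 7 thus lay above every library of days 13 and 16 within its horn. The group medians of the cytosolic genes were 0.00, -0.11, -0.37 and 0.06 in the ipsilateral horn and 0.23, -0.00, -0.25 and 0.25 in the contralateral horn, lowest on day 13, and single libraries of days 7 and 13 overlapped. The group medians of the ER genes on day 16 were -0.44 and -0.22. No test was made of either class median or of a difference between the classes.

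**Figure D1:**
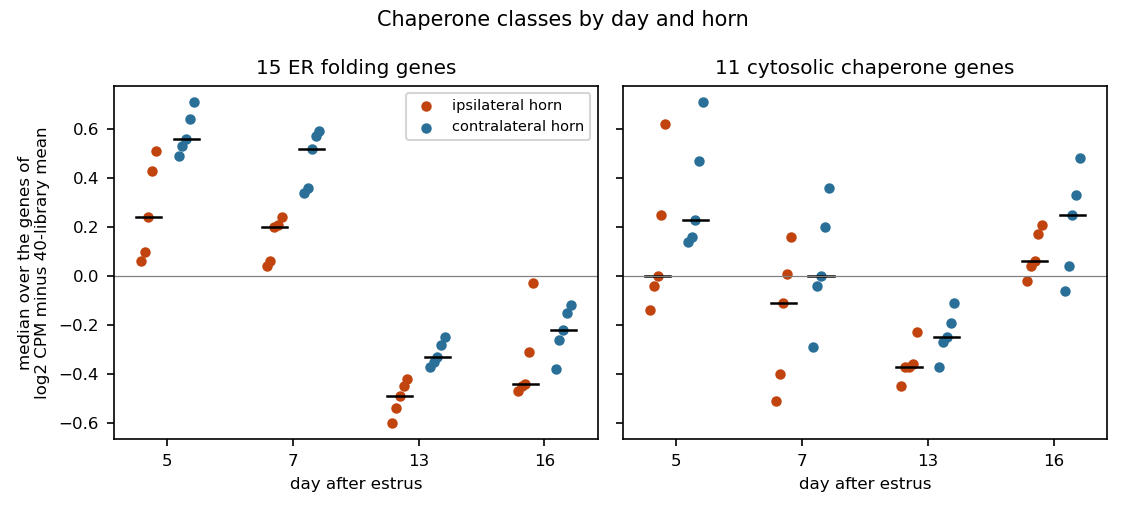
Median over the 15 ER folding genes and over the 11 cytosolic chaperone genes of log2 CPM minus the gene's mean over 40 libraries (y axis) against day (x axis), 1 point per library, with the horns in separate colours and a black line at each group's median. In both horns the ER points of days 5 and 7 lie above those of days 13 and 16, while the black lines of the cytosolic genes are lowest on day 13, where the points overlap those of day 7.

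**Figure D2:**
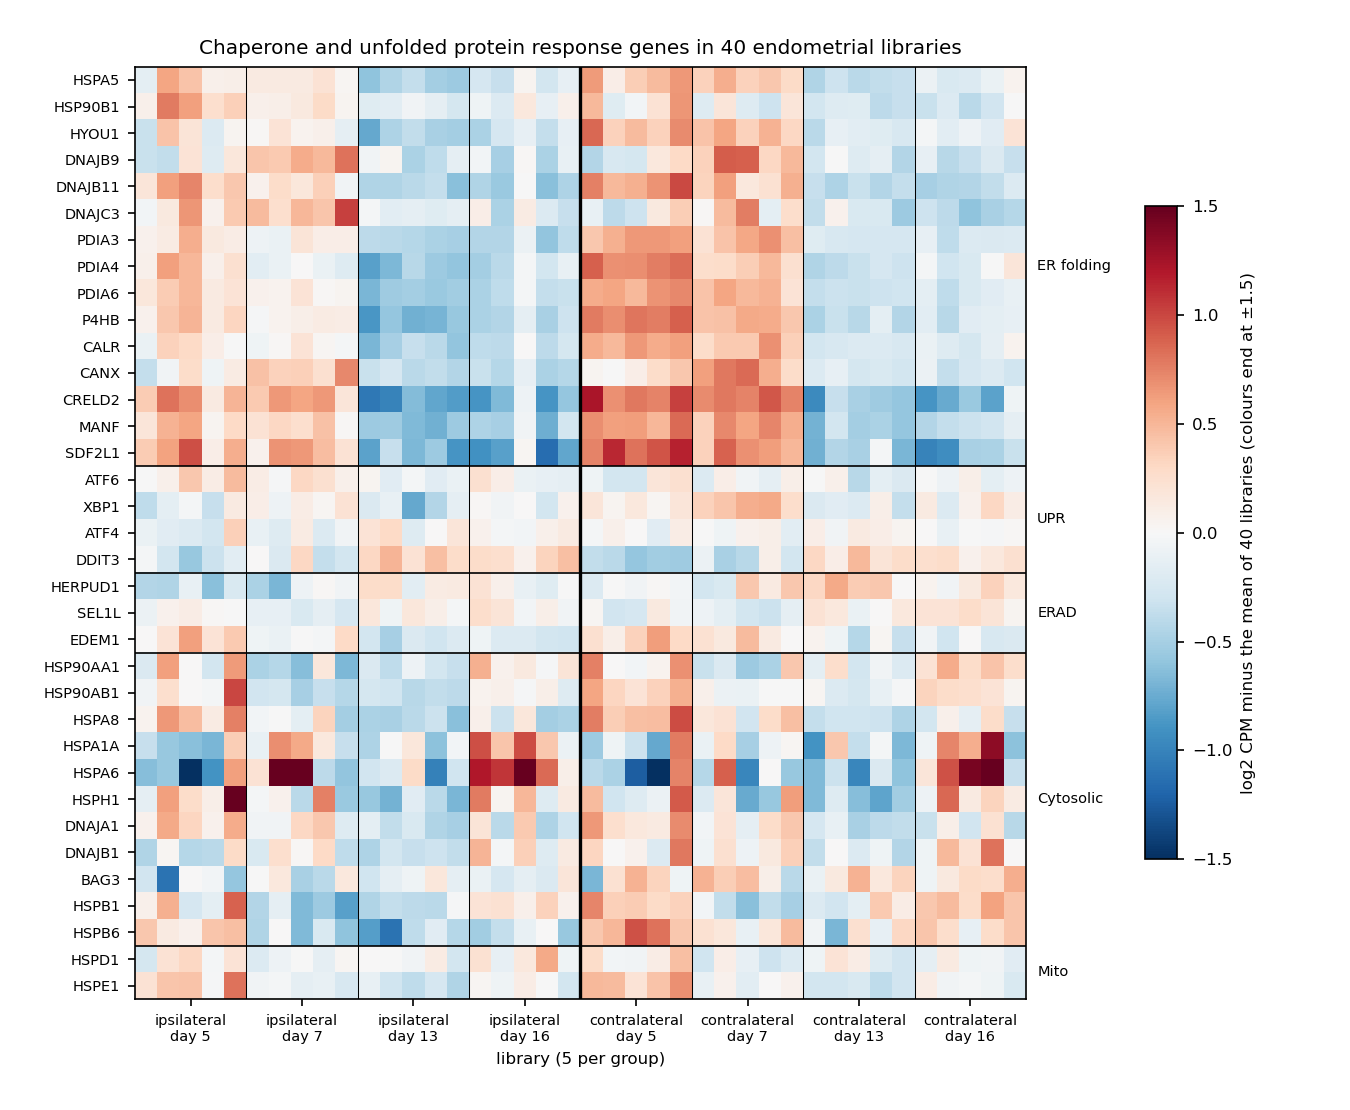
Heat map of the 35 genes (rows, in blocks by role) in the 40 libraries (columns, by day and horn), coloured by log2 CPM minus the gene's mean over all libraries, with colours ending at 1.5 in either direction. The block of ER folding genes changes colour between days 7 and 13, and single ipsilateral libraries of day 5 (8-1350) and day 16 (5-137) stand apart from their groups.

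Between days 7 and 13 the ER folding genes fell together in both horns, by the largest amount in the stress-induced ER genes CRELD2, SDF2L1 and MANF. Of the 15 genes, 14 fell in the ipsilateral and 14 in the contralateral horn, and none rose. Of the 11 cytosolic chaperones none was called in the ipsilateral horn, and 1 rose and 2 fell in the contralateral horn, with medians of -0.35 and -0.22 and 4 and 2 genes above 0. The difference between the classes was not tested. Over all 35 genes, 3 rose and 16 fell in the ipsilateral horn, where 28.6% of all genes tested were called, 14.6% rising and 14.0% falling. In the contralateral horn 3 rose and 19 fell, where 33.5% of all genes were called, 16.0% rising and 17.5% falling. The median log2 fold change of the ER genes was -0.62 in the ipsilateral and -0.78 in the contralateral horn, against 0.03 and 0.01 over all genes tested.

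CRELD2, an ER protein with EGF-like domains that is induced by ER stress, stood at 24.1, 27.9, 32.2, 33.4 and 33.4 CPM in the ipsilateral horn on day 7 and at 9.84, 10.3, 11.6, 12.1 and 13.3 CPM on day 13. Contralateral libraries went from 35, 35.6, 35.7, 37 and 40.8 CPM to 10.6, 14.0, 14.5, 14.9 and 16.6 CPM. The days did not overlap in either horn. CRELD2 fell by 1.38 ± 0.16 (SE) on the log2 scale in the ipsilateral horn (edgeR adjusted p = 6.69e-06) and by 1.38 ± 0.15 in the contralateral horn (adjusted p = 1.1e-06). SDF2L1, a partner of HSPA5 complexes in the ER lumen, went from 8.06, 9.06, 10.8, 12.4 and 12.6 CPM to 3.94, 4.24, 4.68, 5.13 and 5.96 CPM in the ipsilateral horn. Its 5 contralateral libraries were at 9.89, 11.2, 12.2, 12.8 and 14.7 CPM on day 7 and at 4.50, 4.64, 5.35, 5.55 and 7.55 CPM on day 13. Again no library of day 13 reached the lowest of day 7, and SDF2L1 fell by 1.12 ± 0.22 and 1.14 ± 0.17 on the log2 scale (edgeR adjusted p = 0.000811 and 4.75e-05). MANF, a secreted and ER-resident stress factor, went from 53.5, 61.7, 62.9, 65.7 and 71.7 CPM to 31.9, 33.3, 36.1, 36.3 and 36.5 CPM in the ipsilateral horn. Contralateral MANF went from 66.9, 77.1, 79.8, 87.0 and 88.2 CPM to 32.1, 35.3, 36.9, 38.1 and 43.3 CPM. The groups were separate in both horns, with falls of 0.84 ± 0.12 and 1.1 ± 0.09 on the log2 scale (edgeR adjusted p = 4.25e-05 and 6.2e-08).

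HSPA5, the ER member of the HSP70 family that binds unfolded chains and holds the stress sensors inactive, stood at 441, 475, 476, 478 and 504 CPM in the ipsilateral horn on day 7 and at 287, 299, 305, 317 and 337 CPM on day 13. Its contralateral libraries went from 530, 552, 554, 571 and 630 CPM to 317, 327, 335, 341 and 350 CPM. The 5 libraries of a day lay close together and the days were far apart. HSPA5 fell by 0.60 ± 0.11 and 0.76 ± 0.09 on the log2 scale (edgeR adjusted p = 0.000496 and 1.83e-06). Its J-domain partners also fell: DNAJB9 by 0.72 ± 0.14 and 0.82 ± 0.14, DNAJB11 by 0.62 ± 0.12 and 0.79 ± 0.10, and DNAJC3 by 0.67 ± 0.15 and 0.56 ± 0.16 in the ipsilateral and contralateral horns. The contralateral libraries of DNAJC3 overlapped between the days, at 88.8 to 168 CPM and 67.2 to 104 CPM. HYOU1, the exchange factor that releases substrates from HSPA5, fell by 0.55 ± 0.12 and 0.66 ± 0.10.

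Among the disulfide isomerases, P4HB, which also serves as the beta subunit of collagen prolyl 4-hydroxylase, went from 576, 607, 624, 629 and 637 CPM to 320, 354, 360, 392 and 393 CPM in the ipsilateral horn. On the contralateral side it went from 770, 785, 792, 862 and 870 CPM to 419, 431, 438, 464 and 526 CPM. The days did not overlap, and P4HB fell by 0.74 ± 0.09 and 0.84 ± 0.08 on the log2 scale (edgeR adjusted p = 1.1e-05 and 1.52e-07). PDIA6 fell by 0.62 ± 0.08 and 0.78 ± 0.07, PDIA4 by 0.48 ± 0.11 and 0.68 ± 0.08, and PDIA3, which works with the lectin chaperones on glycoproteins, by 0.47 ± 0.10 and 0.72 ± 0.08. The membrane lectin chaperone CANX fell by 0.77 ± 0.11 and 0.84 ± 0.10, and its soluble counterpart CALR by 0.52 ± 0.10 and 0.66 ± 0.08. HSP90B1, the HSP90 of the ER, was the member of this group that was not called in either horn, with log2 fold changes of -0.27 ± 0.11 and -0.22 ± 0.14. Its ipsilateral libraries were still lower on day 13 (507 to 590 CPM) than on day 7 (627 to 746 CPM) without overlap. In the ipsilateral horn all 15 ER folding genes were lower on day 13 without overlap between the 5 libraries of each day, and in the contralateral horn 13 were, excluding HSP90B1 and DNAJC3. Over all genes tested 11.3% were lower without overlap in each horn, and 9.99% and 9.55% were higher.

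The regulators did not move as one. XBP1, whose spliced form drives the genes for ER folding and secretion, went from 211, 227, 240, 242 and 259 CPM to 131, 165, 192, 204 and 206 CPM in the ipsilateral horn. Contralateral libraries went from 267, 284, 299, 325 and 330 CPM to 174, 191, 194, 198 and 238 CPM. It fell without overlap in both, by 0.38 ± 0.12 and 0.60 ± 0.10 on the log2 scale (edgeR adjusted p = 0.0208 and 7.33e-05), and gene counts do not separate its spliced form. The ipsilateral value of XBP1 was -0.17 (adjusted p = 0.363) with the log2 share of reads in microRNA and tRNA genes as a covariate. DDIT3, the transcription factor CHOP, went the other way, from 15.9, 16.7, 18.5, 21.1 and 24 CPM to 24.1, 25.8, 27.2, 28 and 31.7 CPM in the contralateral horn. Its ipsilateral libraries went from 17.4, 18.4, 19.3, 22.7 and 28.1 CPM to 26.2, 27.4, 28.1, 30.8 and 32.3 CPM, with some overlap. DDIT3 rose by 0.47 ± 0.13 and 0.51 ± 0.11 on the log2 scale (edgeR adjusted p = 0.00911 and 0.00103). ATF4, the factor above DDIT3 in the PERK branch, had log2 fold changes of 0.21 ± 0.11 and 0.08 ± 0.07, and ATF6 of -0.22 ± 0.10 and -0.10 ± 0.11, none of which was called. With the microRNA and tRNA share as a covariate ATF4 rose by 0.39 ± 0.12 in the ipsilateral horn (edgeR adjusted p = 0.0241).

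The 3 genes of ER-associated degradation split. SEL1L, the adaptor of the HRD1 ubiquitin ligase, rose by 0.26 ± 0.07 and 0.28 ± 0.08 on the log2 scale, with ipsilateral libraries at 153 to 167 CPM on day 7 and 173 to 205 CPM on day 13. EDEM1, which selects misfolded glycoproteins for degradation, fell by 0.31 ± 0.10 and 0.35 ± 0.11. HERPUD1, a stress-induced part of the ligase complex, rose by 0.39 ± 0.13 in the ipsilateral horn (edgeR adjusted p = 0.0362) and had a log2 fold change of 0.23 ± 0.13 in the contralateral horn (adjusted p = 0.196). The ipsilateral call of HERPUD1 was lost under RLE scaling (adjusted p = 0.0554) and that of EDEM1 with the microRNA and tRNA share as a covariate (adjusted p = 0.102). In the cytosol, the constitutive HSP70 gene HSPA8 fell by 0.53 ± 0.14 in the contralateral horn, from 1033, 1416, 1476, 1518 and 1722 CPM to 918, 984, 1015, 1024 and 1027 CPM. The days were separate there, and the ipsilateral log2 fold change of HSPA8 was -0.39 ± 0.17 (edgeR adjusted p = 0.0894). Its J-domain partner DNAJA1 fell by 0.47 ± 0.14 and the small heat shock protein gene HSPB1 rose by 0.37 ± 0.13, both in the contralateral horn. The contralateral call of HSPB1 was lost with all 40 libraries in 1 fit (edgeR adjusted p = 0.0719). It was also lost without any 1 of 6 libraries (adjusted p up to 0.146). HSPE1, the co-chaperonin of mitochondria, fell by 0.27 ± 0.08 there, while HSPD1, the chaperonin itself, was called in no day comparison given here without a covariate. With the microRNA and tRNA share as a covariate HSPD1 fell by 0.44 ± 0.09 from day 5 to 7 in the contralateral horn (edgeR adjusted p = 0.00431). HSPA8 and HSP90AB1 belong to families with many near-identical copies, and how reads shared between copies were counted was not stated in the sources used here.

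**Figure D3:**
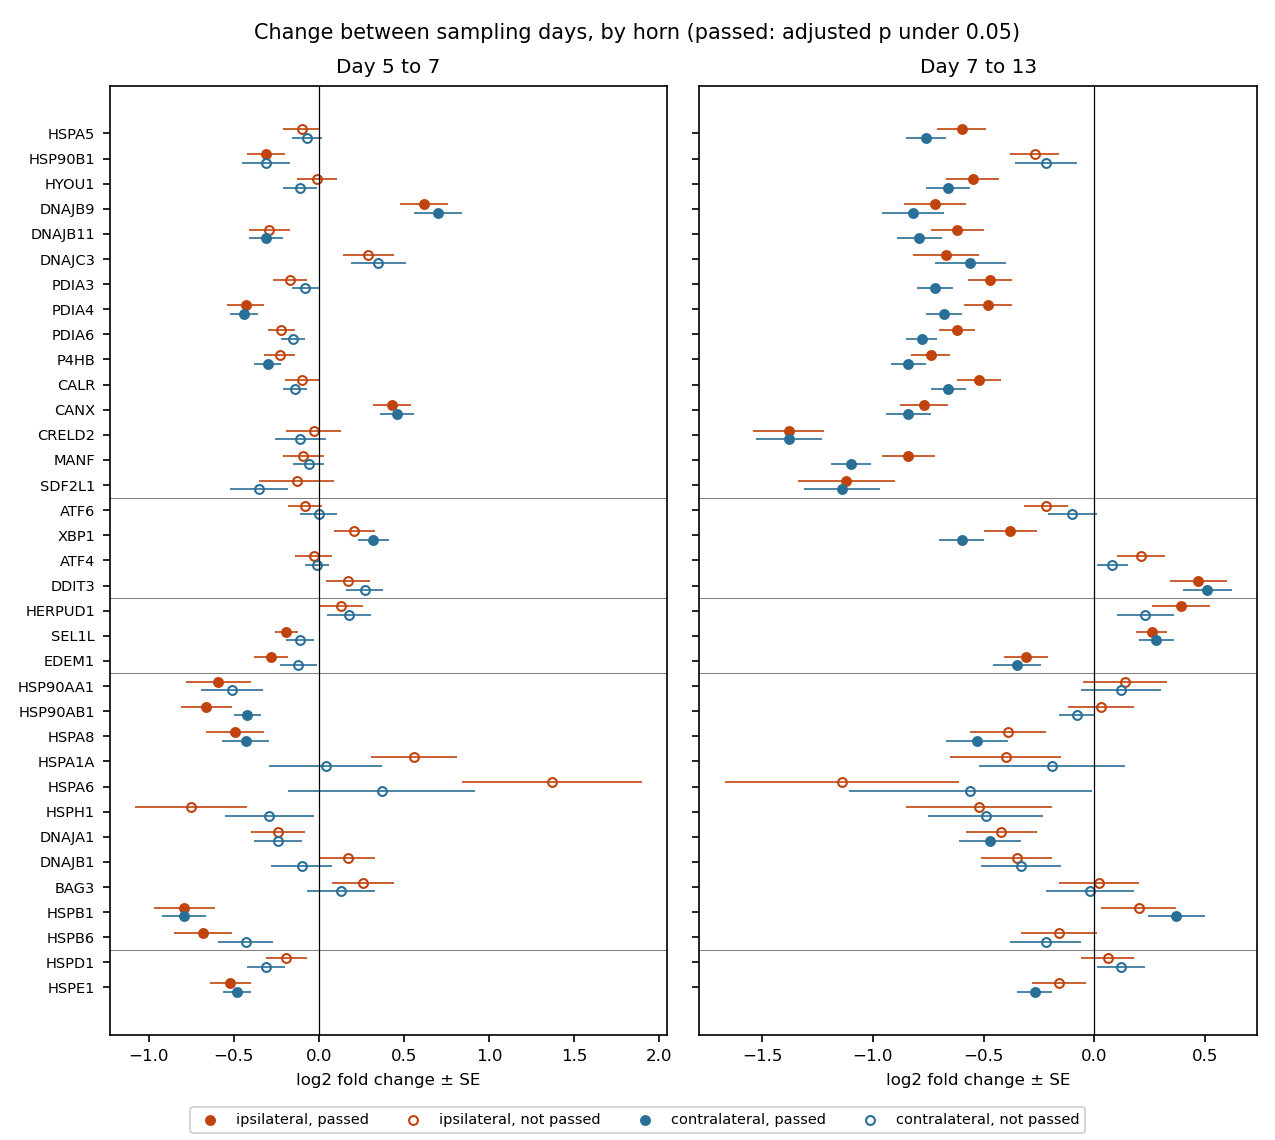
Log2 fold change ± SE (x axis) of each of the 35 genes (rows, in blocks by role) between days 5 and 7 and between days 7 and 13, with the horns in separate colours and filled points for adjusted p below 0.05. From day 7 to 13 all 15 ER folding genes lie below 0 in both horns and 14 are filled in each, while cytosolic genes lie on both sides of 0.

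Other genes of the same compartments were taken from lists of related genes. From day 7 to 13, 14 of 35 other ER folding genes fell and 2 rose in the ipsilateral horn, and 17 fell and 1 rose in the contralateral horn, with medians of -0.27 and -0.28. FKBP9, a prolyl isomerase of the ER, fell by 1.64 ± 0.15 and 1.65 ± 0.15, and ERO1L, the oxidase that recharges the disulfide isomerases, by 1.44 ± 0.19 and 1.33 ± 0.22 on the log2 scale. Of 31 genes of ER translocation and N-glycosylation, 17 and 22 fell and 2 and 2 rose, with OSTC falling by 0.77 ± 0.10 and 1.02 ± 0.08 and the signal peptidase subunit gene SEC11C rising by 1.17 ± 0.21 and 1.06 ± 0.15. Of 21 genes of ER to Golgi transport, 13 fell in each horn and none rose, with the COPII coat gene SEC31A falling by 1.35 ± 0.16 and 1.45 ± 0.11. The other degradation genes moved in both directions, 4 up and 9 down in the ipsilateral and 4 up and 10 down in the contralateral horn out of 21. SYVN1, which encodes HRD1 itself, fell by 1.03 ± 0.13 and 1.01 ± 0.15, and DERL3 rose by 0.96 ± 0.22 and 1.06 ± 0.32. Of 27 other genes of the unfolded protein and integrated stress responses, 4 rose and 9 fell in the ipsilateral and 3 rose and 9 fell in the contralateral horn. PSAT1 and MTHFD2, metabolic targets of ATF4, fell by 2.15 ± 0.48 and 1.65 ± 0.21 in the ipsilateral horn, while PPP1R15A, which reverses the translation block of PERK, rose by 0.99 ± 0.22 there. Of 45 other cytosolic chaperone and heat shock factor genes, 4 rose and 8 fell in the ipsilateral and 4 rose and 16 fell in the contralateral horn, with medians of -0.11 in both.

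Cell type markers moved over the same days. Of 8 uterine gland markers, 4 fell and 1 rose in the ipsilateral and 3 fell and 1 rose in the contralateral horn. Log2 fold changes were above 0 for 3 of the 8 in each horn. Their sum went from 422 to 691 CPM on day 7 to 137 to 287 CPM on day 13 in the ipsilateral horn. In the contralateral horn it went from 519 to 645 CPM to 185 to 322 CPM. Much of this fall came from UPK1B, whose group means went from 201 to 4.09 CPM and from 216 to 3.52 CPM. Of 18 epithelium markers, 4 rose and 5 fell in the ipsilateral and 4 rose and 4 fell in the contralateral horn. Of 9 plasma and B cell markers only IRF4 was called, falling in each horn. Their medians were 0.33 and -0.12, with 5 and 4 of the 9 above 0. The 9 summed to 139 to 228 CPM on day 7 and 151 to 288 CPM on day 13 in the ipsilateral horn. The contralateral sums were 134 to 253 CPM and 158 to 277 CPM. Of 15 immediate early genes, 4 and 7 rose, and their sum went from 452 to 627 CPM to 728 to 905 CPM in the ipsilateral horn. Of 10 endothelium markers 3 rose in each horn, with medians of 0.46 in both and 9 and 10 above 0, and their sum went from 382 to 720 CPM to 599 to 924 CPM in the ipsilateral and from 401 to 794 CPM to 598 to 1097 CPM in the contralateral horn. The share of reads in mitochondrial genes went from 0.124 to 0.399% to 0.448 to 0.526% in the ipsilateral and from 0.112 to 0.329% to 0.263 to 0.578% in the contralateral horn. The part of these markers and of this share in the fall of the ER folding genes was not tested.

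Between days 5 and 7 HSP90AB1, HSPA8 and HSPB1 of the cytosol, HSPE1 of mitochondria and PDIA4 of the ER fell in both horns, and DNAJB9 and CANX of the ER rose in both. Of the 11 cytosolic genes, 5 fell in the ipsilateral horn and 3 in the contralateral horn, and none rose. Of the 15 ER genes, 2 rose and 2 fell in the ipsilateral and 2 rose and 3 fell in the contralateral horn. Over all 35 genes 2 rose and 10 fell in the ipsilateral horn, where 28.8% of all genes tested were called, 15% rising and 13.7% falling. In the contralateral horn 3 rose and 7 fell, where 20.4% of all genes were called, 10.8% rising and 9.58% falling. The median of the cytosolic genes was -0.49 and -0.29, against -0.02 and 0.00 over all genes tested. This comparison and the one from day 7 to 13 share the libraries of day 7.

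HSP90AB1, the constitutive cytosolic HSP90, stood at 1127, 1145, 1167, 1385 and 2332 CPM in the ipsilateral horn on day 5 and at 827, 869, 915, 957 and 978 CPM on day 7. Its contralateral libraries went from 1340, 1454, 1476, 1690 and 1753 CPM to 1087, 1100, 1158, 1160 and 1233 CPM. The days did not overlap in either horn, and the ipsilateral value of 2332 CPM came from library 8-1350. HSP90AB1 fell by 0.66 ± 0.15 and 0.42 ± 0.08 on the log2 scale (edgeR adjusted p = 0.00393 and 0.00147), and without library 8-1350 the ipsilateral fall was 0.41 ± 0.08 (adjusted p = 0.0017). HSPB1, a small heat shock protein that binds actin and unfolded clients, went from 169, 181, 212, 290 and 369 CPM to 114, 127, 137, 148 and 183 CPM in the ipsilateral horn. On the contralateral side it went from 246, 254, 258, 261 and 334 CPM to 130, 142, 155, 156 and 195 CPM, without overlap. HSPB1 fell by 0.79 ± 0.18 and 0.79 ± 0.13 on the log2 scale (edgeR adjusted p = 0.00295 and 0.000396). HSP90AA1, the inducible cytosolic HSP90, fell by 0.59 ± 0.19 in the ipsilateral horn with overlapping libraries, and its contralateral log2 fold change was -0.51 ± 0.18 (edgeR adjusted p = 0.0504). The ipsilateral call of HSP90AA1 was lost with library depth as a covariate (edgeR adjusted p = 0.0628). HSPA8 fell by 0.49 ± 0.17 and 0.43 ± 0.14. Both calls of HSPA8 were lost with library depth as a covariate (edgeR adjusted p = 0.0795 and 0.0845). They were also lost without any 1 of 7 ipsilateral and any 1 of 5 contralateral libraries. HSPB6, a small heat shock protein abundant in muscle, fell by 0.68 ± 0.17 in the ipsilateral horn from 82.3 to 107 CPM to 49.3 to 78.7 CPM, and its contralateral log2 fold change was -0.43 ± 0.16 (edgeR adjusted p = 0.0703).

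HSPE1 went from 107, 127, 146, 147 and 191 CPM to 91.7, 98.3, 101, 105 and 106 CPM in the ipsilateral horn, and fell by 0.52 ± 0.12 there and by 0.48 ± 0.08 in the contralateral horn, without overlap in either. DNAJB9, which restrains the sensor IRE1 as well as assisting HSPA5, went from 63.4, 65.1, 71.5, 91.9 and 94 CPM to 107, 110, 115, 121 and 144 CPM in the ipsilateral horn. In the contralateral horn its libraries stood at 60.2 to 101 CPM on day 5 and at 101 to 155 CPM on day 7, separate before rounding. DNAJB9 rose by 0.62 ± 0.14 and 0.70 ± 0.14 on the log2 scale (edgeR adjusted p = 0.003 and 0.00211), so that its day 7 level stood above days 5 and 13 in both horns. CANX had the same course: it rose by 0.43 ± 0.11 and 0.46 ± 0.10 from day 5 to 7, with group means that then fell by day 13 as given above. XBP1 rose in the contralateral horn, by 0.32 ± 0.09, from 228, 229, 250, 252 and 253 CPM to 267, 284, 299, 325 and 330 CPM without overlap, and its ipsilateral log2 fold change was 0.21 ± 0.12 (edgeR adjusted p = 0.186). PDIA4 fell by 0.43 ± 0.11 and 0.44 ± 0.08 without overlap in either horn, HSP90B1 by 0.31 ± 0.11 in the ipsilateral horn, and P4HB by 0.30 ± 0.08 and DNAJB11 by 0.31 ± 0.10 in the contralateral horn. In ER-associated degradation, EDEM1 fell by 0.28 ± 0.10 and SEL1L by 0.19 ± 0.07 in the ipsilateral horn. The ipsilateral calls of EDEM1, HSP90B1 and SEL1L were lost with all 40 libraries in 1 fit (edgeR adjusted p = 0.0533, 0.0621 and 0.0596). They were also lost without the filter on low counts (0.0774, 0.072 and 0.104). With library depth as a covariate the calls of HSP90B1 and SEL1L were lost (edgeR adjusted p = 0.0908 and 0.0665). That of SEL1L was lost under RLE scaling too (0.0564), and without any 1 of the 10 libraries. The contralateral call of DNAJB11 was lost with library depth as a covariate (edgeR adjusted p = 0.108) and without the filter on low counts (0.0524). It was also lost without any 1 of 6 libraries (up to 0.099). In all, 1 gene rose and 5 fell without overlap in the ipsilateral horn and 2 rose and 5 fell in the contralateral horn, against 9.91% and 8.15%, and 6.01% and 6.29%, of all genes tested.

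Leaving out library 8-1350 left 10 of the 35 genes called in the ipsilateral horn, 4 rising and 6 falling. HSP90AA1 (adjusted p = 0.0712), HSPA8 (0.0911), EDEM1 (0.0748) and SEL1L (0.0558) were no longer called, and HSPA1A, with a log2 fold change of 0.79 ± 0.23 (edgeR adjusted p = 0.0184), and HSPA6, with 1.95 ± 0.52 (adjusted p = 0.0115), then rose. The count was 7 without any 1 of day 5 library 3-175 and day 7 libraries 2-1337, 2-371 and 4-064. Smooth muscle markers fell over these days, 9 of 15 in the ipsilateral and 4 of 15 in the contralateral horn, and their sum went from 991 to 6890 CPM to 425 to 817 CPM and from 869 to 1694 CPM to 504 to 933 CPM. Stromal markers fell in 8 and 5 of 12 cases, epithelium markers rose in 11 and fell in 2 of 18 cases in the ipsilateral and rose in 4 and fell in 2 in the contralateral horn, and gland markers rose in 4 and 2 of 8. The part of these cell types in the chaperone changes was not tested.

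Among related genes, 12 of 45 other cytosolic chaperone genes fell and 4 rose in the ipsilateral horn, and 10 fell and 5 rose in the contralateral horn. CCT2, CCT3, CCT4, CCT5, CCT7 and TCP1, subunits of the cytosolic chaperonin, were among those that fell in both horns. CRYAB, the small heat shock protein alphaB-crystallin, fell by 1.19 ± 0.26 and 0.86 ± 0.15 on the log2 scale, and HSPB7 rose by 1.69 ± 0.44 and 2.06 ± 0.37. FKBP5, a steroid receptor cochaperone, rose by 0.94 ± 0.22 and 0.70 ± 0.23. Of 35 other ER folding genes, 5 rose and 11 fell in the ipsilateral and 5 rose and 8 fell in the contralateral horn, with ERO1L rising by 2.01 ± 0.20 and 1.94 ± 0.22 and FKBP10 falling by 1.23 ± 0.29 and 1.12 ± 0.24. Of 21 other degradation genes, 8 rose and 1 fell in the ipsilateral and 3 rose and 1 fell in the contralateral horn, and SYVN1 rose by 1.37 ± 0.13 and 1.08 ± 0.15. Of 27 other stress response genes, 6 rose and 2 fell in the ipsilateral and 8 rose and 2 fell in the contralateral horn. NUPR1, a small transcriptional regulator induced by stress, rose by 2.82 ± 0.34 and 2.76 ± 0.35, and PHGDH, the first enzyme of serine synthesis, by 1.80 ± 0.30 and 1.35 ± 0.22.

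Between days 13 and 16 the cytosolic chaperones stood higher on day 16 in both horns, but only HSP90AB1 in the contralateral horn passed the test. HSP90AB1 rose there from 973, 1019, 1083, 1155 and 1194 CPM to 1204, 1353, 1385, 1405 and 1468 CPM. The days were separate, and the log2 fold change was 0.33 ± 0.08 (edgeR adjusted p = 0.0426). In the ipsilateral horn HSP90AB1 went from 871, 893, 901, 948 and 972 CPM to 1025, 1150, 1210, 1237 and 1241 CPM, also without overlap, with a log2 fold change of 0.35 ± 0.15 (adjusted p = 0.394). Few genes of any kind were called over these days, 0.446% in the ipsilateral (0.193% rising, 0.253% falling) and 1.68% in the contralateral horn (0.608% rising, 1.07% falling), against 0 and 1 of the 35 genes described here. At an unadjusted p below 0.05, edgeR gave 13 of the 35 and 2213 of all 19733 genes in the ipsilateral horn. With adjustment DESeq2 gave 1 of the 35 and 349 of the 19772 genes to which it gave an adjusted p, and limma-voom 0 and 90 of 19733. The contralateral call of HSP90AB1 was lost without any 1 of 7 libraries, with edgeR adjusted p up to 0.128. These were day 13 libraries 5-140, 5-167 and 6-203 and day 16 libraries 2-068, 3-155, 5-137 and 7-107. All but 6-203 and 3-155 left 0 genes called. With only the 10 libraries of the 2 days its adjusted p was 0.0844. This comparison and the one from day 7 to 13 share the libraries of day 13.

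Of the 11 cytosolic genes, 10 had log2 fold changes above 0 in the ipsilateral and 11 in the contralateral horn, with medians of 0.44 and 0.43 against -0.00 and 0.01 over all genes tested. HSP90AA1 had log2 fold changes of 0.44 ± 0.19 and 0.43 ± 0.18 and HSPB1 of 0.50 ± 0.17 and 0.45 ± 0.13, none of which was called. In the ipsilateral horn 7 of the 35 genes were higher on day 16 without overlap (HSP90AA1, HSP90AB1, HSPB1, DNAJB1, HSPA5, P4HB and PDIA6) and none was lower. HSP90AB1, HSPH1, HSPA5 and HSPE1 were higher in the contralateral horn without overlap and none was lower. The same was true of 1.81% and 1.69% of all genes tested for higher values and of 1.15% and 2.41% for lower values. The ER folding genes had medians of 0.21 and 0.03, with 12 and 10 of 15 above 0. Without ipsilateral library 5-137 the ER median was 0.11 with 9 genes above 0, the cytosolic median was 0.46, and 0 genes were called. That library stood at 7.89 CPM for SDF2L1 against 3.24 to 4.29 CPM in the other 4, at 20 against 11.2 to 14.0 CPM for CRELD2, and at 31.6 against 20.3 to 23.2 CPM for DNAJB11. It was the highest of its group in 14 of the 15 ER folding genes and the lowest in ATF4 and DDIT3. Of the related genes, FKBP4, a steroid receptor cochaperone, rose by 0.57 ± 0.10 on the log2 scale in the contralateral horn. PHGDH fell by 1.97 ± 0.30 and 1.91 ± 0.23, and PSAT1 fell by 2.10 ± 0.26 in the contralateral horn.

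The stress-inducible cytosolic genes HSPA1A, HSPA6, DNAJB1 and HSPH1 were called in no comparison over all libraries without a covariate. HSPA6, HSPH1 and HSPA1A varied more among the libraries of a group than any other of the 35 genes. HSPA1A and HSPA6 are heat-inducible HSP70 genes, DNAJB1 is the J-domain partner of inducible HSP70, and HSPH1 is an exchange factor for HSP70. The median coefficient of variation within groups was 68.4% for HSPA6, 32.5% for HSPA1A, 33% for HSPH1 and 19.8% for DNAJB1, against 6.70% to 20.4% for the ER folding genes. HSPA1A shares reads with a near-identical neighbour, HSPA1B, so its counts may hold both genes. With the microRNA and tRNA share as a covariate, DNAJB1, at -0.78 ± 0.19 (edgeR adjusted p = 0.00631), and HSPH1, at -1.0 ± 0.32 (adjusted p = 0.0323), fell from day 7 to 13 in the contralateral horn.

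HSPA1A in the ipsilateral horn stood at 413, 457, 612, 624 and 707 CPM on day 13 and at 591, 837, 845, 1229 and 1241 CPM on day 16. The contralateral libraries stood at 337, 396, 489, 618 and 833 CPM and at 412, 605, 923, 1041 and 1599 CPM. The days overlapped in both horns, with log2 fold changes of 0.75 ± 0.25 and 0.78 ± 0.33 (edgeR adjusted p = 0.233 and 0.302). HSPA6 went from 1.28, 2.41, 2.44, 2.59 and 3.88 CPM to 3.32, 5.95, 7.05, 7.76 and 11.1 CPM in the ipsilateral horn. Contralateral libraries went from 1.32, 1.78, 1.87, 2.38 and 2.58 CPM to 2.34, 3.56, 6.43, 9.07 and 15.6 CPM. The days overlapped in both horns, and its log2 fold changes were 1.47 ± 0.53 and 1.90 ± 0.56 (edgeR adjusted p = 0.274 and 0.0984). On day 5 library 8-1350 held the highest ipsilateral value of all 4 genes, with 533 CPM for HSPH1 against 124 to 210 CPM in the other 4 libraries.

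These genes went up and down together from library to library within a horn. As deviations from the day means of log2 CPM, HSPA6 correlated with HSPA1A at Pearson's r = 0.86 in the 20 ipsilateral libraries (Spearman's rho = 0.86) and at r = 0.84 in the 20 contralateral libraries (rho = 0.84), with an adjusted permutation p of 6e-05 for each r. Without the 2 libraries farthest from the median of HSPA1A, r was 0.80 and 0.75. DNAJB1 correlated with HSPA1A at r = 0.66 (rho = 0.61, adjusted permutation p of r = 0.00501) and r = 0.86 (rho = 0.81, adjusted permutation p of r = 8e-05), and at 0.52 and 0.82 without the 2 farthest libraries. HSPH1 gave r = 0.54 (rho = 0.43, adjusted permutation p = 0.0309 for r and 0.099 for rho) and r = 0.51 (rho = 0.52, adjusted permutation p = 0.0425 and 0.0479), falling to 0.33 and 0.41 without those libraries, so that this relation rests in part on them. BAG3, a cochaperone that heat shock also induces, gave r = -0.30 and -0.09 (adjusted permutation p = 0.27 and 0.849), and HSP90AA1 gave 0.33 and 0.45 (adjusted permutation p = 0.24 and 0.0855). HSPA5, the ER relative, gave r = 0.00 in both horns (adjusted permutation p = 0.993 for each). The 12 relations were tested two-sided with 100000 permutations and adjusted together, and 1e-05 is the smallest p these permutations can give. Deviations were permuted over all 20 libraries of a horn and not within a day. As they sum to 0 within each day, these p-values may be too small.

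**Figure D4:**
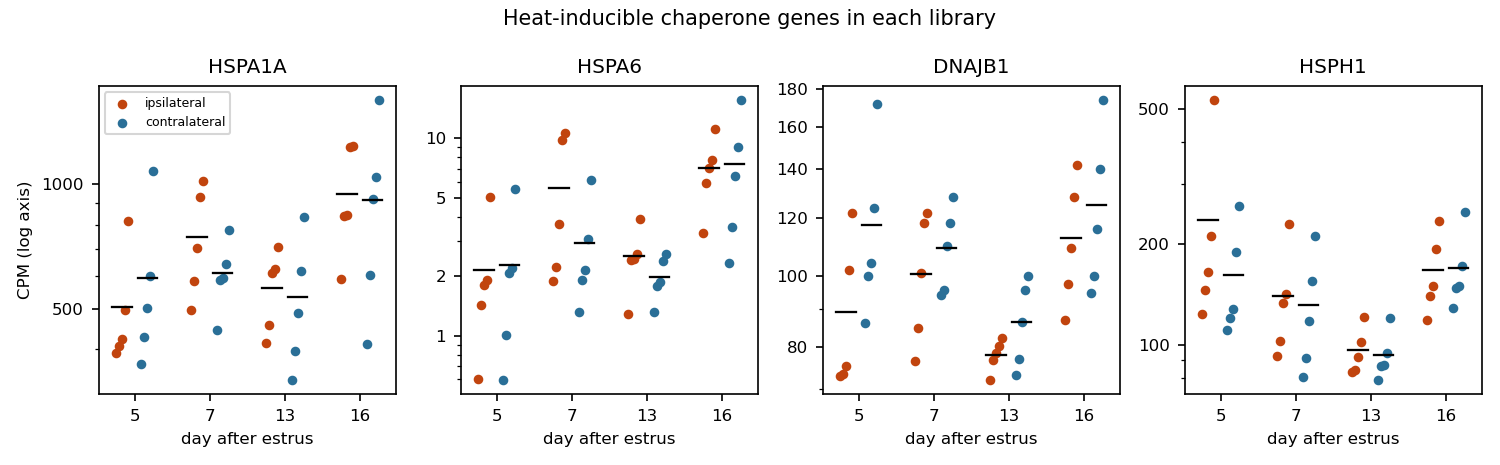
CPM on a log axis (y) of HSPA1A, HSPA6, DNAJB1 and HSPH1 against day (x), 1 point per library, with the horns in separate colours and a bar at each group mean. Points of 1 group spread widely for HSPA6, whose groups' median coefficient of variation is 68.4%, and the HSPH1 point at 533 CPM on day 5 is ipsilateral library 8-1350.

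Between the horns, the folding enzymes of the ER were lower on the side of the corpus luteum, with most calls on days 5 and 7, although no change of the difference with day was called. On day 5, 7 of the 35 genes were lower in the ipsilateral horn and none was higher, where 22.7% of all genes tested were called, 12.3% higher and 10.4% lower. On day 7, 9 were lower and none was higher, against 11.7% of all genes called, 7.52% higher and 4.2% lower. On day 13 only P4HB was lower, against 5.72% called, 4.52% higher and 1.2% lower, and of all calls on that day 79.1% were higher under TMM and 67.4% under RLE scaling. On day 16 none was called, against 4.53% of all genes, 3.87% higher and 0.663% lower, and 1 of the 35, HSPB6, had an unadjusted p below 0.05 by edgeR, as did 3255 of all 20356 genes. DESeq2 and limma-voom called 1 of the 35 each, and 1412 of 16424 and 925 of 20356 genes with an adjusted p. The median difference of the 15 ER folding genes was -0.32, -0.29, -0.20 and -0.08 on days 5, 7, 13 and 16, and that of the 11 cytosolic genes -0.15, -0.13, -0.15 and -0.15, with all genes between -0.03 and 0.00.

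The isomerase P4HB differed on 3 of the 4 days. On day 5 it stood at 611, 642, 732, 777 and 831 CPM in the ipsilateral and at 950, 995, 1001, 1021 and 1090 CPM in the contralateral horn. The horns did not overlap on day 5, 7 or 13, and on day 16 they did, at 415 to 530 CPM and 436 to 536 CPM. The log2 difference was -0.49 ± 0.08 on day 5, -0.41 ± 0.08 on day 7, -0.32 ± 0.08 on day 13 and -0.16 ± 0.08 on day 16 (edgeR adjusted p = 3.57e-05, 0.000688, 0.0111 and 0.322). CALR on day 5 stood at 620, 660, 714, 819 and 841 CPM in the ipsilateral and at 934, 978, 978, 1021 and 1042 CPM in the contralateral horn. The day 7 values of CALR were 636, 651, 673, 681 and 767 CPM and 805, 851, 871, 872 and 1070 CPM. The horns were separate on both days, with differences of -0.44 ± 0.09 and -0.39 ± 0.09 (edgeR adjusted p = 0.000362 and 0.00234). PDIA4 stood at 182, 183, 204, 244 and 265 CPM against 278, 280, 294, 308 and 322 CPM on day 5, and at 151, 155, 161, 161 and 172 CPM against 203, 206, 210, 222 and 243 CPM on day 7. PDIA4 was lower, at -0.46 ± 0.10 and -0.44 ± 0.10 (edgeR adjusted p = 0.000728 and 0.00232), again without overlap.

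HYOU1, PDIA3, PDIA6 and MANF were the other ER genes lower in the ipsilateral horn on both days. HYOU1 differed by -0.51 ± 0.11 and -0.39 ± 0.11, PDIA3 by -0.36 ± 0.09 and -0.44 ± 0.09, PDIA6 by -0.32 ± 0.08 and -0.38 ± 0.08, and MANF by -0.32 ± 0.11 and -0.34 ± 0.11. The MANF calls were lost with the microRNA and tRNA share as a covariate (edgeR adjusted p = 0.0772 and 0.186). They were also lost with only the 10 libraries of the day (0.109 and 0.0638), and without any 1 of 3 and of 6 libraries. The day 5 calls of HYOU1, PDIA3 and PDIA6 were lost with only those 10 libraries (0.0564, 0.0784 and 0.0573). The day 7 call of HYOU1 was lost with the covariate (0.205) and without any 1 of 2 libraries. On day 7 XBP1 was lower as well, at 211 to 259 CPM against 267 to 330 CPM, with a difference of -0.35 ± 0.11 (edgeR adjusted p = 0.0266). HSPB6 was the 1 cytosolic gene called on a single day, at 49.3, 51.4, 57.1, 66.5 and 78.7 CPM in the ipsilateral and 72.6, 88.0, 88.2, 91.6 and 109 CPM in the contralateral horn on day 7. These overlapped in part, and the difference was -0.57 ± 0.17 (edgeR adjusted p = 0.024). Its differences on days 13 and 16 were of similar size, -0.53 ± 0.17 and -0.56 ± 0.17, but were not called (adjusted p = 0.0621 and 0.0522). Without library 5-137 in the ipsilateral horn the day 16 difference of HSPB6 was -0.64 ± 0.18 (adjusted p = 0.0491), and the day 16 median of the ER genes was -0.21. Without overlap, 3 of the 35 genes were lower on day 5, 10 on day 7, 5 on day 13 and 0 on day 16, and none was higher on any day. Over all genes tested 5.72%, 3.71%, 2.12% and 1.83% were lower and 7.6%, 6.18%, 4.61% and 4.49% were higher in this sense. The number of the 35 genes called on day 13 was 0 without contralateral library 6-203 or ipsilateral library 4-1314, 3 without contralateral 5-140 or ipsilateral 5-167, and 4 without ipsilateral 6-203. On day 16 the number called was 1 without either library 5-137 or without ipsilateral library 7-107.

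Averaged over the 4 days, 16 of the 35 genes were lower and 3 higher in the ipsilateral horn, where 38.2% of all genes tested were called, 19.6% higher and 18.6% lower. Of the ER folding genes, 10 were lower, led by HYOU1 at -0.36 ± 0.06, P4HB at -0.35 ± 0.04 (edgeR adjusted p = 1.44e-08) and PDIA4 at -0.34 ± 0.05, and 2 were higher. The 2 were DNAJC3, at 0.24 ± 0.08 (adjusted p = 0.0159), and HSP90B1, at 0.18 ± 0.06 (adjusted p = 0.0269). Of the cytosolic genes, HSPB6 at -0.49 ± 0.09, BAG3 at -0.37 ± 0.10, HSP90AB1 at -0.23 ± 0.06 and HSPB1 at -0.21 ± 0.08 were lower and none was higher. The call of HSPB1 was lost without any 1 of 6 libraries (edgeR adjusted p up to 0.0605). XBP1 was lower, at -0.22 ± 0.05, HERPUD1, at -0.25 ± 0.07, and ATF6 was higher by 0.14 ± 0.05 (edgeR adjusted p = 0.0397). The call of ATF6 was lost under DESeq2 (adjusted p = 0.078) and RLE scaling (adjusted p = 0.0735), and with the number in the titles as a block the adjusted p of HSP90B1 was 0.0729 and that of XBP1 on day 7 was 0.0655.

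**Figure D5:**
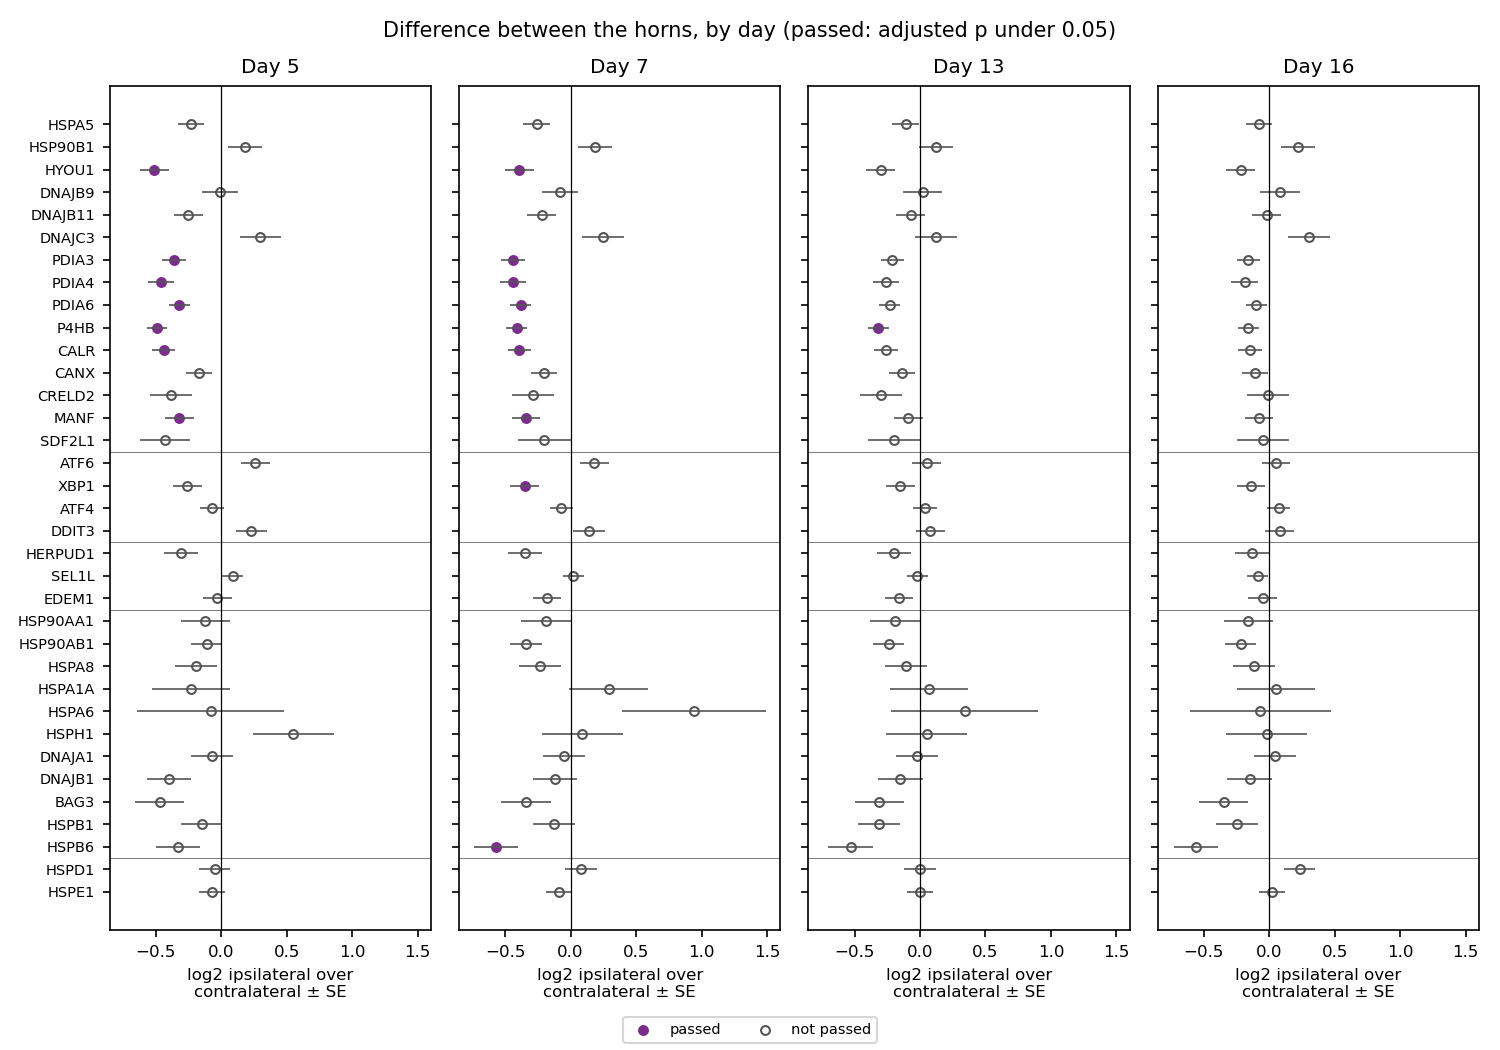
Log2 difference, ipsilateral over contralateral, ± SE (x axis) of each of the 35 genes (rows, in blocks by role) on days 5, 7, 13 and 16 (panels), with filled points for adjusted p below 0.05. Filled points number 7, 9, 1 and 0 over the 4 days, all lie below 0, and all but XBP1 and HSPB6 on day 7 are ER folding genes.

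Among related genes the average over days showed 19 of 35 other ER folding genes lower and 7 higher in the ipsilateral horn, and 17 of 31 translocation and glycosylation genes lower and 3 higher. The translocon gene SEC61A1 was lower, at -0.40 ± 0.05 and the signal recognition particle receptor gene SRPR, at -0.37 ± 0.04, while SEC62, which serves the same channel, was higher by 0.57 ± 0.04. DNAJB14, a J-domain protein of the ER membrane, was higher by 0.64 ± 0.06, and CREBRF, a regulator of the unfolded protein response, by 0.69 ± 0.06. Of 21 other degradation genes 13 were lower and 2 higher, with the ATPase gene VCP at -0.32 ± 0.03. Of 21 transport genes 12 were lower and 5 higher, with the retrieval receptor gene KDELR1 at -0.37 ± 0.03, and of 45 other cytosolic chaperone genes 13 were lower and 11 higher.

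Other measures differed between the horns on the same days. On day 5, 12 of 18 epithelium markers were lower in the ipsilateral horn, with sums of 1146 to 1724 CPM against 1747 to 2295 CPM, 2 of 8 gland markers were lower, and 4 of 15 smooth muscle markers were higher. Over the average of the days 11 of 18 epithelium and 5 of 12 stromal markers were lower. On day 7 no marker of epithelium, glands, smooth muscle or stroma was called. The epithelium markers had a median difference of -0.22 on that day with 1 of 18 above 0 and 4 at an unadjusted p below 0.05, and the stromal markers a median of -0.34 with 3 of 12 above 0, beside -0.29 for the ER folding genes. The part of these cell types in the horn differences was not tested. The share of reads in microRNA and tRNA genes was higher in the ipsilateral horn, with group medians of 0.0116% against 0.00902% on day 5, 0.0122% against 0.00983% on day 7, 0.015% against 0.0118% on day 13 and 0.0145% against 0.0124% on day 16. With the log2 of this share as a covariate the number of genes called went to 6 on day 5, 3 on day 7, 0 on day 13 and 6 for the average. Over all genes tested the same covariate took the calls from 4628 to 2240 on day 5, from 2386 to 231 on day 7 and from 7768 to 2059 for the average. The 6 called for the average were CALR at -0.39 ± 0.08, PDIA4 at -0.38 ± 0.09, HYOU1 at -0.36 ± 0.10, P4HB at -0.34 ± 0.07, PDIA3 at -0.31 ± 0.08 and PDIA6 at -0.31 ± 0.07. Under this covariate the average differences of HSPB6 and BAG3 were -0.45 and -0.25 (edgeR adjusted p = 0.0625 and 0.404). Those of HSP90AB1 and HSPB1 were -0.08 and -0.01 (edgeR adjusted p = 0.724 and 0.982). Those of DNAJC3 and HSP90B1 were 0.05 and 0.07 (edgeR adjusted p = 0.884 and 0.763). What the share itself stands for was not tested.

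The difference between the horns was then tested for change with day. None of the 35 genes was called by edgeR, DESeq2 or limma-voom. Nor was any of the 20356 genes tested by edgeR and limma-voom (0.0%), or of the 28632 genes with an adjusted p in DESeq2. At an unadjusted p below 0.05 edgeR gave P4HB alone among the 35, and 572 of all 20356 genes, while limma-voom gave 504 of them. DESeq2 gave 773 of the 28684 genes it tested. The narrowing of the P4HB difference from -0.49 on day 5 to -0.16 on day 16 is therefore not shown to differ between days after adjustment.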

How the data were processed

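Poly(A) RNA of endometrial homogenate was sequenced from stranded libraries, per the labels' protocols. The authors deposited 1 table of raw read counts per gene and library, made with FastQC, HISAT2 and featureCounts on UMD3.1, per the submitters' processing notes, and their versions and settings are not given in the sources used here. Genes were matched by symbol, and 27 rows whose names had become dates were not matched. Counts were tested with edgeR 4.0.16 in R 4.3.3 (filterByExpr, TMM, quasi-likelihood F test, adjusted p below 0.05). Days were compared within a horn over 20 libraries. Horns were compared over all 40 libraries, without a block, since the numbers in the titles, which would pair the libraries of 1 heifer, gave correlations of -0.258 to 0.669. DESeq2 1.42.0, limma 3.58.1 (voom), RLE scaling, no filter, covariates and leaving out each library were alternatives. The genes and lists were chosen with earlier results of these data known. All 35 genes are named by role, and those of related lists were taken from the 2 highest and 2 lowest called genes in each comparison. The chaperonin subunits were named after their values were seen. P-values measure the spread between these samples.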

Additional observations from a re-analysis of the deposited data

Results flagged for a closer look

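In 17 of the 280 groups of 5 libraries, 1 library lay far from the other 4 by Dixon's ratio at the 95% level, in 14 of the 35 genes. Chance gives such a gap in about 1 in 20 groups. Of the 17, 4 came from ipsilateral library 8-1350 of day 5: HSP90AB1 at 2332 CPM with the nearest library at 1385, HSPA1A at 815 against 497, HSPH1 at 533 against 210 and ATF4 at 357 against 260. Ipsilateral library 5-137 of day 16 gave DNAJB11 at 31.6 against 23.2 CPM and SDF2L1 at 7.89 against 4.29 CPM. Library 6-338 of day 7 gave DNAJC3 at 201 against 140 CPM and EDEM1 at 104 against 84.0 CPM in the ipsilateral horn, and HSP90AA1 at 2010 against 1309 CPM in the contralateral horn. Library 5-117 of day 7 gave HSP90AA1 at 1708 against 1127 CPM in the ipsilateral and CALR at 1070 against 872 CPM in the contralateral horn. PDIA3 stood at 885 against 671 CPM in ipsilateral library 4-184 of day 5 and at 535 against 513 CPM in contralateral library 4-1314 of day 13. PDIA6 stood at 268 against 243 CPM in ipsilateral library 4-064 of day 7. HSPB1 stood at 334 against 261 CPM in contralateral library 1-315 of day 5 and at 197 against 157 CPM in ipsilateral library 8-275 of day 13. P4HB was the low case, at 436 against 518 CPM in contralateral library 3-155 of day 16.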

How the results depend on the processing

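No value of the 35 genes changed its direction where it was called. Over all genes, the balance of higher and lower calls turned from day 7 to 13 in the ipsilateral horn, from 2880 and 2761 to 2581 and 2967 under RLE scaling, 2934 and 3347 under DESeq2 and 2388 and 2757 without a filter. For the average over days it turned from 3990 and 3778 to 3803 and 4182, 4033 and 4268, and 3720 and 4180. From day 13 to 16 in the ipsilateral horn DESeq2 called 1 gene and a fit on all 40 libraries 1, against 0. In the contralateral horn DESeq2 called 5, and no filter, the microRNA and tRNA share as covariate and all 40 libraries each 0, against 1. Between horns, the 10 libraries of the day alone gave 3 on day 5, and the covariate gave 3 on day 7, 0 on day 13 and 6 for the average. On day 13 DESeq2 gave 6 and RLE scaling 4, and on day 16 DESeq2, limma-voom, RLE scaling and the 10 libraries alone gave 1 each. Leaving out 1 library gave 7 to 12 genes from day 5 to 7 in the ipsilateral and 7 to 12 in the contralateral horn, 17 to 20 and 19 to 22 from day 7 to 13, and 0 to 0 and 0 to 1 from day 13 to 16. For the horns it gave 6 to 10 on day 5, 6 to 10 on day 7, 0 to 4 on day 13, 0 to 1 on day 16, 17 to 22 for the average and 0 to 0 for the change with day. The cause was not tested for any of these. With the title number as a replicate block the counts were 9, 10, 1 and 0 on days 5, 7, 13 and 16, 19 for the average and 0 for the change with day. Own-number libraries correlated best with each other in 5 of 20 cases. Of 100 called values per gene and comparison, 99 held under DESeq2, 97 under RLE scaling, 100 under limma-voom, 90 without a filter, 92 with depth and 68 with the microRNA and tRNA share as covariate, and 130 of 1570 were lost when 1 library was left out. The lowest count of any gene was 17 reads, so depth limits mainly HSPA6.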

Other observations

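In a check chosen after seeing the data, the level of each gene was compared between the horns that share a number in the titles, as deviations from the group means over the 20 numbers. Pearson's r ran from -0.59 to 0.45 with a median of 0.00, and 16 of the 35 genes were above 0. No gene had an r with a permutation p below 0.05, adjusted or not, while Spearman's rho gave 2 genes unadjusted, HSP90B1 and PDIA3, and 0 adjusted. HSPA1A and HSPA6 were highest in the same numbered library of both horns on day 5 (8-1350), which was 1 day picked after seeing the values. Over all 20 numbers their r was 0.36 and 0.40 (unadjusted permutation p = 0.166 and 0.121).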
